A study of Mus musculus with 21 samples.

Results

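The comparison set C3H/10T1/2 cells carrying histone H2B with lysine at residue 71 (E71K, 3 libraries) against the same cells with glutamine at that residue (E71Q, 3 libraries). These are 6 of the 21 RNA sequencing libraries of the series. C3H/10T1/2 is a line of mesenchymal progenitor cells from mouse embryo, grown in medium with fetal bovine serum. The other libraries carry wild-type H2B (WT) or a lysine or glutamine in place of glutamate E76 (E76K, E76Q) or E113 (E113K, E113Q); each of the 7 groups has 3 libraries. No added treatment or time course is named in the labels, and all groups share the parent line and the culture. The design calls the replicates biological and independent, but no separate clones of a genotype are named, so the substitution and any other difference between the 2 lines cannot be told apart. Values are TPM, the transcript abundance per length with a fixed sum in each library, listed for 24091 genes. Of these, 11756 averaged 1 TPM or more over the 6 libraries and were tested. Because TPM holds no read total, sequencing depth is unknown here.

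H2B is 1 of the core histones around which DNA is wound in the nucleosome. Glutamate carries a negative charge at neutral pH. Glutamine removes that charge with a side chain of almost the same shape, while lysine replaces it with a positive charge. Glutamate 71 lies in the long central helix of the H2B histone fold, glutamate 76 faces histone H4, and glutamate E113 is part of the acidic patch, a surface that many chromatin proteins bind. C3H/10T1/2 cells are known for their capacity to form fat, cartilage, bone and muscle cells under suitable culture conditions.

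The codon in question is shown here in 2 endogenous H2B genes whose transcripts differed between the lines, from residue 64 to residue 76 counted without the first methionine, with the glutamate 71 codon in capitals. The letters are those of the reference transcripts (GENCODE M21, GRCm38) and not of the mutant alleles.
Hist1h2bc: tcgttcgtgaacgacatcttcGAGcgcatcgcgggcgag
Hist1h2bf: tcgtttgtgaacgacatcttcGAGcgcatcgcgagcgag
Of 18 H2B genes read in this way, 17 encode glutamate at E71, E76 and E113, and the exception by this numbering is Hist1h2ba. A TPM value does not separate an H2B transgene from the endogenous genes.

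Some features of the libraries bear on every result. E71K replicate 3 stood apart from its mates: its correlation of log2(TPM + 1) across the tested genes was 0.930 and 0.925 with E71K replicates 1 and 2, and 0.934 and 0.936 with E71Q replicates 2 and 3. E71Q replicate 1 correlated at 0.959 and 0.952 with its mates and at 0.923 and 0.924 with E71K replicates 1 and 2, whereas E71Q replicates 2 and 3 correlated with those 2 libraries at 0.896 to 0.898. In addition, the microRNA locus Mir6236 alone took between 2.35% and 30.6% of the TPM of the E71K libraries and between 5.47% and 21.2% of that of the E71Q libraries, which lowers every other value in the libraries where it is high. Markers of mesenchymal progenitors were expressed: 10 of 12 had a mean of at least 1 TPM, among them Vim, Ly6a and Prrx1, while Nt5e was under 1 TPM in every library. None of 8 endothelial markers reached a mean of 1 TPM, and among leukocyte markers Ptprc and Csf1r were under 1 TPM and Adgre1 and Tyrobp at 0 in all 6 libraries. Lyz2 and Cd68, also on the leukocyte list, averaged at least 1 TPM.

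Between the lines 565 of 11756 genes passed the test (4.81%; limma on log2(TPM + 1), Benjamini-Hochberg adjusted p below 0.05). Of these, 302 (2.57%) were higher in E71K and 263 (2.24%) were lower in E71K. Differences are given throughout as the E71K mean minus the E71Q mean of log2(TPM + 1), on which scale a value of 1 is 2-fold for a well expressed gene and less than the true change for a low one. At an unadjusted p below 0.05 there were 2252 genes. The 3 E71K values lay above all 3 E71Q values in 1646 genes (14%) and below them in 1017 (8.65%). The median difference over all tested genes was 0.00. WT libraries, which did not enter the test, lay nearer to E71K than to E71Q for 232 of the 302 genes higher in E71K and for 159 of the 263 lower ones. For 239 of the 565 genes the WT mean lay between the 2 mutants.

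The number of calls depended on the libraries used. Without E71K replicate 3 it was 1685, of which 40.3% were higher in E71K, and without E71Q replicate 1 it was 429, of which 43.1% were higher. Without both it was 3459, and 29.8% of these were higher in E71K, against 53.5% with all 6 libraries. All 565 genes passed in the same direction without E71K replicate 3 and without both libraries, and 360 did so without E71Q replicate 1. Rescaling the libraries by their median ratio gave 2224 calls, which included 499 of the 565. Leaving out E71K replicate 1 or 2, or E71Q replicate 2 or 3, ended 41 to 45 of the calls of 77 named genes; without E71Q replicate 1 it was 20, and without E71K replicate 3 none. Of the 77, 28 passed in every alternative run that tested them: 20 of the 24 genes with the largest differences, and Cdh11, Cytl1, Il1rn, Krt15, Plagl1, Pparg, Prelp and Tbx1. Il1rn, Plagl1 and Tbx1 averaged under 5 TPM and were not tested in the run with that filter.

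**Figure D1:**
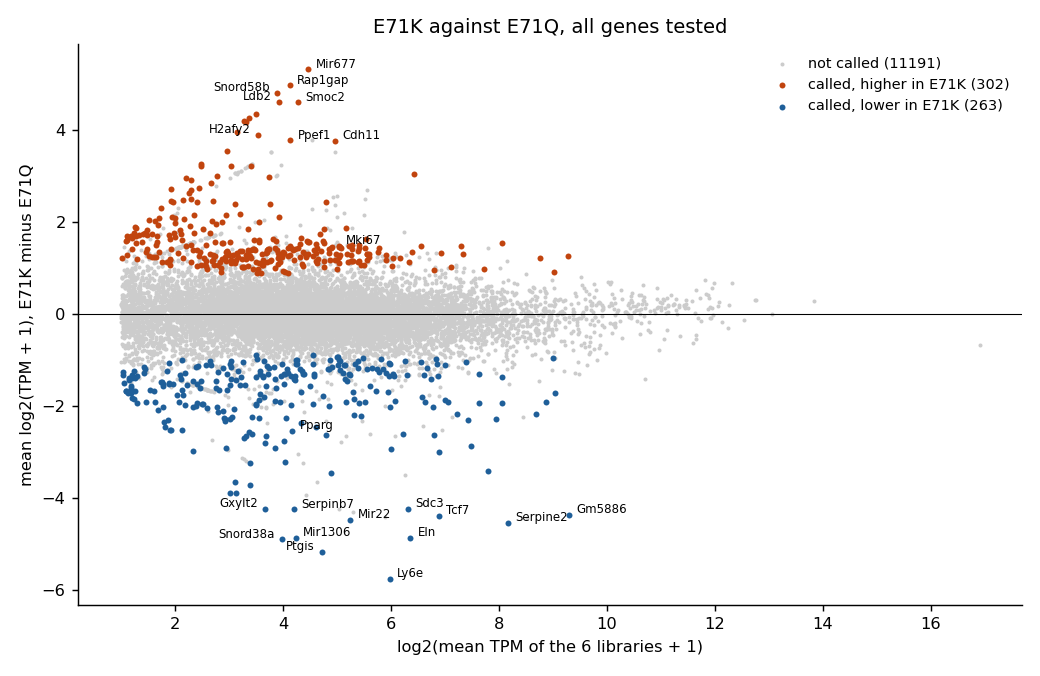
Difference between E71K and E71Q for each of the 11756 tested genes (vertical axis, log2(TPM + 1)) against its mean level over the 6 libraries (horizontal axis, log2(TPM + 1)). The 302 genes higher in E71K are orange, the 263 lower ones are blue and the others are grey; the genes farthest from 0 include Mir677 and Rap1gap above and Ly6e and Ptgis below.

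The 12 genes with the largest excess in E71K were at most 1.90 TPM in every E71Q library. Rap1gap, which turns off the small GTPase Rap1, lies at chr4:137664711-137729861 (GRCm38). It was at 46.6, 19.7 and 32.1 TPM in E71K replicates 1 to 3 and at 0.03, 0 and 0.04 TPM in E71Q (difference 4.96 ± 0.31, SE, adjusted p = 1.79e-05). In WT it ranged from 0.58 to 23.7 TPM, so the WT libraries overlapped E71K and did not agree among themselves. Ldb2, an adaptor of LIM-domain transcription factors, was at 20.2, 15.7 and 48.6 TPM in E71K and at most 0.12 TPM in E71Q (4.60 ± 0.37, adjusted p = 0.000103). Smoc2, a matricellular protein related to Sparc, had 35.8, 28.6 and 44.1 TPM in E71K and 0.43, 0.50 and 0.63 TPM in E71Q (4.59 ± 0.24). Both lines were below WT in this gene, since WT averaged 388 TPM ± 12.1 (SD, n = 3).

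Ndn, the imprinted gene of the growth-restraining protein necdin, was at 18.3, 14.04 and 29.2 TPM in E71K and at 0.06, 0 and 0 TPM in E71Q (4.33 ± 0.30, adjusted p = 2.56e-05). Pdlim1, an actin-associated PDZ and LIM protein, was at 23.7, 15.2 and 17.4 TPM in E71K and at 0.07, 0 and 0 TPM in E71Q (4.25 ± 0.26, adjusted p = 1.76e-05). For these 2 genes and for Pxdc1 (15.3 to 20.3 TPM in E71K, at most 0.07 TPM in E71Q) WT stayed under 1 TPM in every library. Gpnmb, a glycoprotein of lysosome-related organelles, and the phosphatase gene Ppef1 showed another order: WT averaged 78.5 and 122.9 TPM, E71K 15.6 and 31.6 TPM, and E71Q 0.05 and 1.41 TPM. H2afy2, which encodes the histone variant macroH2A2, was at 17.6, 14.8 and 30.0 TPM in E71K, 0.38 to 0.47 TPM in E71Q and 8.60 TPM on average in WT (3.89 ± 0.29). The transcribed pseudogene Gm41 had 13.9 to 21.9 TPM in E71K and was listed at 0 in E71Q.

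In the other direction, Ly6e (chr15:74955025-74959904) encodes a GPI-anchored protein of the Ly6 family. It was at 2.17, 1.05 and 0.71 TPM in E71K and at 148, 107 and 112.5 TPM in E71Q (-5.78 ± 0.27, adjusted p = 5.96e-06). WT averaged 127.1 TPM, within the range of E71Q. Ptgis (chr2:167203194-167252150), the prostacyclin synthase, was at 0.60, 0.21 and 0.36 TPM in E71K, at 35.1, 60.7 and 55.5 TPM in E71Q and at 4.79 TPM on average in WT (-5.18 ± 0.27). Serpine2, a secreted inhibitor of thrombin and other serine proteases, was at 26.6, 21.8 and 19.7 TPM in E71K and at 587, 501 and 563 TPM in E71Q, with a WT mean of 81.9 TPM between them (-4.55 ± 0.22, adjusted p = 5.96e-06). Sdc3, a heparan sulfate proteoglycan of the cell surface, was at 5.27 to 8.49 TPM in E71K and at 108 to 175 TPM in E71Q (-4.25 ± 0.27).

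Tcf7, a transcription factor of the Wnt pathway, was at 1.59, 22.2 and 17.4 TPM in E71K and at 227, 163 and 272 TPM in E71Q (-4.39 ± 0.68, adjusted p = 0.00643). The E71K libraries differed among themselves, and the lowest of them was replicate 1. Serpinb7, an intracellular serpin, had 0.55 to 1.12 TPM in E71K and 26.0 to 47.3 TPM in E71Q (-4.26 ± 0.28), with a WT mean of 1.48 TPM. Gxylt2, a glucoside xylosyltransferase, was at most 0.40 TPM in E71K and at 12.1, 28.1 and 29.3 TPM in E71Q (-4.25 ± 0.34), with a WT mean of 16.9 TPM. Gm5886, annotated as a transcribed pseudogene, was at 35.2 to 114 TPM in E71K and at 755 to 1505 TPM in E71Q (-4.38 ± 0.43). Reads of a pseudogene may be shared with a near copy, so its level is uncertain.

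Eln, the elastin gene, was the case that turned on single libraries. It was at 0.65, 0.38 and 7.82 TPM in E71K and at 8.46, 199 and 271 TPM in E71Q (-4.88 ± 1.13, adjusted p = 0.0398), so that E71K replicate 3 and E71Q replicate 1 were nearly level. Without those 2 libraries the difference was -7.27. It did not pass in 11 of 20 alternatives.

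Across all tested genes, 13 had at least 10 TPM in every E71K library and less than 1 TPM in every E71Q library, and 6 had the reverse. Among the 13, the WT mean was under 1 TPM in 6 genes and at least 10 TPM in 4. Among the 6, it was under 1 TPM in 3 and at least 10 TPM in 2. These bounds were chosen after the values were seen.

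**Figure D2:**
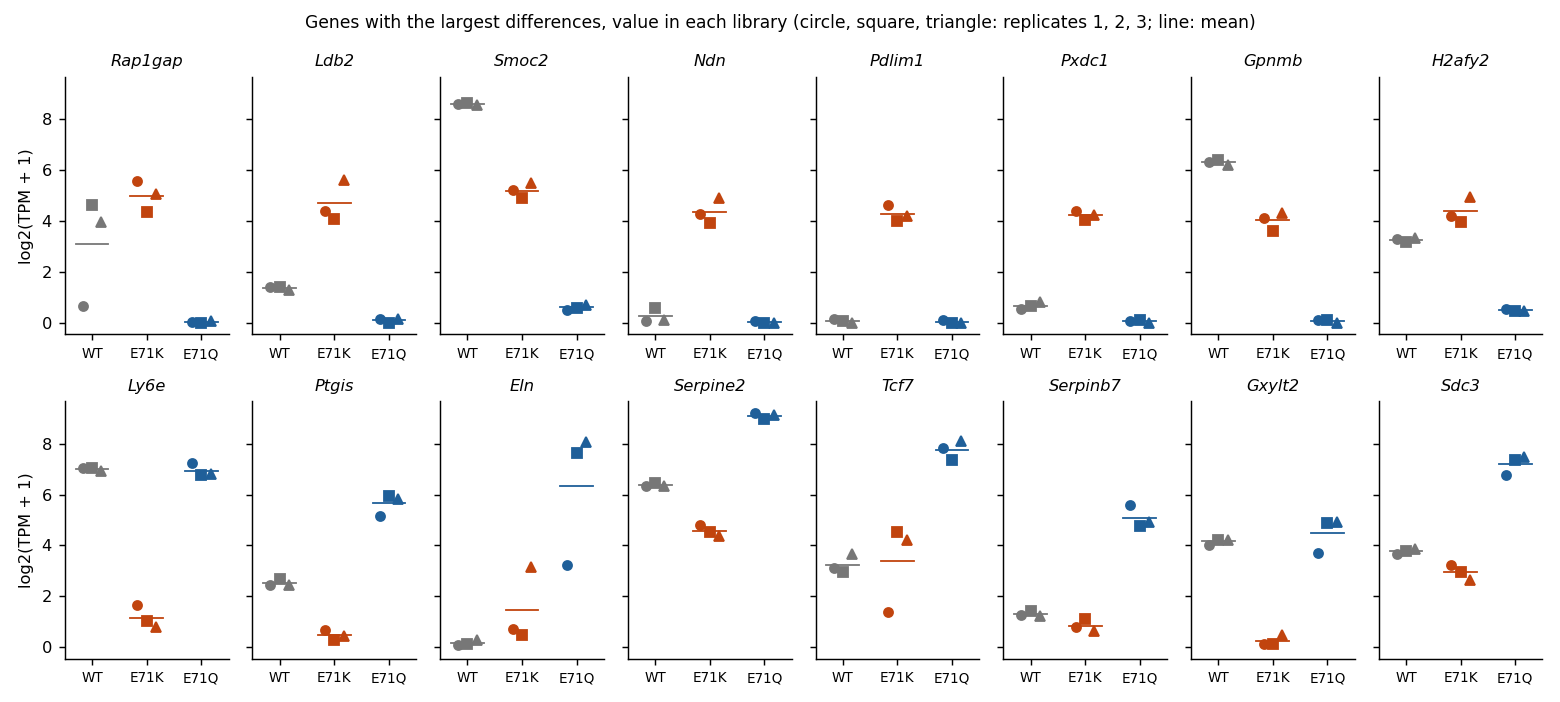
Level in each library (vertical axis, log2(TPM + 1)) of protein-coding genes with the largest excess in E71K (upper row) and in E71Q (lower row), with WT in grey, E71K in orange and E71Q in blue; symbols mark replicates 1 to 3 and lines mark group means. Only genes whose E71K and E71Q libraries do not overlap were eligible for these panels. Eln shows E71K replicate 3 at 7.82 TPM and E71Q replicate 1 at 8.46 TPM side by side.

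The 250 bases before the annotated start are shown for 4 of these genes, 2 higher and 2 lower in E71K, as examples of the sequence before the start of genes with large differences. CG dinucleotides are in capitals, the sequences are RefSeq's (GRCm38.p6), and they read 5′ to 3′ on the strand of the gene. Ndn is at chr7:62348027-62348276 on the plus strand, Pdlim1 at chr19:40271617-40271866 on the minus strand, Serpine2 at chr1:79858666-79858915 on the minus strand and Serpinb7 at chr1:107422439-107422688 on the plus strand.
Ndn: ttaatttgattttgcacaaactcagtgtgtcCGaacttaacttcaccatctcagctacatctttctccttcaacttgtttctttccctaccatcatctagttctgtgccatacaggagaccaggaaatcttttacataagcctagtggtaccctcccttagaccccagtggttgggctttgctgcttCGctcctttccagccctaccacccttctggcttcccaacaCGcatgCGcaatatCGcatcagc
Pdlim1: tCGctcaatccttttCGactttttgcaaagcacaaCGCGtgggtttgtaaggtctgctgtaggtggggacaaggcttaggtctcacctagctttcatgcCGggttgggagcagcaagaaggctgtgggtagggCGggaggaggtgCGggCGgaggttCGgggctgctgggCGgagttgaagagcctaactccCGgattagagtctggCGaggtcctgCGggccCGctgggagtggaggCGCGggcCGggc
Serpine2: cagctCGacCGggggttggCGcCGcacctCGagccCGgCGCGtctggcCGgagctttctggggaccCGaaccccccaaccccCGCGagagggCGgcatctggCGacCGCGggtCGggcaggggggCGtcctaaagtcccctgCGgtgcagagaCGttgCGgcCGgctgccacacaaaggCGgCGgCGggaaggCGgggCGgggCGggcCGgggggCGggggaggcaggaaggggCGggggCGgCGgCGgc
Serpinb7: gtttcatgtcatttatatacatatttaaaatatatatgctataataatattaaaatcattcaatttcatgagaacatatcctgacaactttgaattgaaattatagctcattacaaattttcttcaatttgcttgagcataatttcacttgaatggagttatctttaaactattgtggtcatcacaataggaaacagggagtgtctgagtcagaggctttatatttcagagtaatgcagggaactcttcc
Ndn has 5 CG in this window, Pdlim1 17, Serpine2 34 and Serpinb7 none. Of 32851 windows of this length in the table, 92.1% hold at least 1 CG and the median number is 6. The largest differences thus included genes with CG-rich and genes with CG-poor windows. The letters are those of the reference, and neither methylation nor binding was measured.

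Several of the largest differences were at small RNA loci, which the library and quantification may not resolve. The snoRNA Snord58b, within Rpl17, was at 35.7, 22.1 and 25.0 TPM in E71K and listed at 0 in E71Q, but in WT it was listed at 0 in 2 libraries and was at 68.2 TPM in the third. Mir677, within Atp5b, was at 22.6 to 64.2 TPM in E71K and listed at 0 in E71Q and in WT. Snord38a and Mir1306, within Dgcr8, were listed at 0 in all E71K libraries and were at 23.99 to 33.1 TPM and 11.7 to 67.9 TPM in E71Q. Mir22 was at 23.6 TPM in E71K replicate 1, listed at 0 in the other two, and at 51.2 to 85.4 TPM in E71Q. The host genes Atp5b, Rpl17, Dgcr8 and Mir22hg did not pass the test and overlapped between the lines: Rpl17, for example, was at 1444 to 2012 TPM in E71K and at 1444 to 1542 TPM in E71Q. These loci are 55 to 95 bases long, so few reads set their values.

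Of 40 genes of the G2 phase and mitosis 24 passed, all higher in E71K (differences 1.12 to 1.60), beside 2.57% of all tested genes. The lines did not overlap in 33, beside 14% of all tested genes with E71K above E71Q. The list's median difference was 1.28 beside 0.00 for all tested genes. Mki67, the proliferation marker, was at 65.7, 46.0 and 31.4 TPM in E71K and at 16.2, 14.1 and 17.2 TPM in E71Q (1.47 ± 0.28, adjusted p = 0.0175). Cdc25c, the phosphatase that activates the mitotic kinase, was at 24.5, 17.1 and 8.72 TPM against 6.42, 3.27 and 4.08 TPM (1.60 ± 0.36). Cenpa, the histone H3 variant of centromeres, was at 88.4, 58.9 and 37.9 TPM against 28.7, 14.04 and 19.7 TPM (1.499 ± 0.35). In each of these genes E71K replicate 3 was the lowest of its group, though still above every E71Q library.

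The median of the same list relative to WT was 0.35, -0.13 and -0.77 in E71K replicates 1 to 3 and -1.13, -1.69 and -1.54 in E71Q replicates 1 to 3. These values are on TPM as deposited. With each library's own median over all tested genes removed, they were 0.23, 0.17 and -1.0 in E71K and -0.95, -1.76 and -1.69 in E71Q. E71K replicate 3 and E71Q replicate 1 then overlapped. Of 40 genes of the G1/S transition and DNA replication only 3 passed, Uhrf1, Prim1 and Pole, although 30 did not overlap (14% of all tested genes had E71K above E71Q) and the median difference was 0.80. Of these 40 genes 29 passed without E71K replicate 3 (5.78% of all tested genes were called higher there). It was 30 without both libraries set apart (8.76%) and 1 without E71Q replicate 1 (1.57%). Uhrf1, which guides maintenance of DNA methylation, was at 75.5, 55.5 and 37.0 TPM in E71K and at 18.4 to 20.8 TPM in E71Q (1.396 ± 0.28). Cdkn2c, an inhibitor of CDK4 and CDK6, was also higher in E71K (36.0 to 50.8 against 15.9 to 23.6 TPM, 1.11 ± 0.24). For the p53 target Cdkn1a the values were 259, 191 and 264 TPM in E71K and 356, 328 and 324 TPM in E71Q, which did not pass (-0.51 ± 0.22, adjusted p = 0.247).

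Mki67, Cdc25c and Cenpa each did not pass in 4 of the 6 runs that left out 1 library. For whole lists, the only single libraries left out were E71K replicate 3 and E71Q replicate 1. Runs without any other library are therefore not covered for lists. Counts for the mitosis list moved with the settings, while its median was 1.28 to 1.71 in those computed. They were 38 without both libraries set apart (8.76% of all tested genes were called higher there), 37 without E71K replicate 3 (5.78%) and 14 without E71Q replicate 1 (1.57%). They were 7 after median-ratio rescaling (8.77%) and 6 with chromosome medians set equal (6.12%). After median-ratio rescaling 17 of the 40 mitosis genes and 15 of the 40 G1/S genes did not overlap, beside 21.7% of all tested genes with E71K above E71Q.

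**Figure D3:**
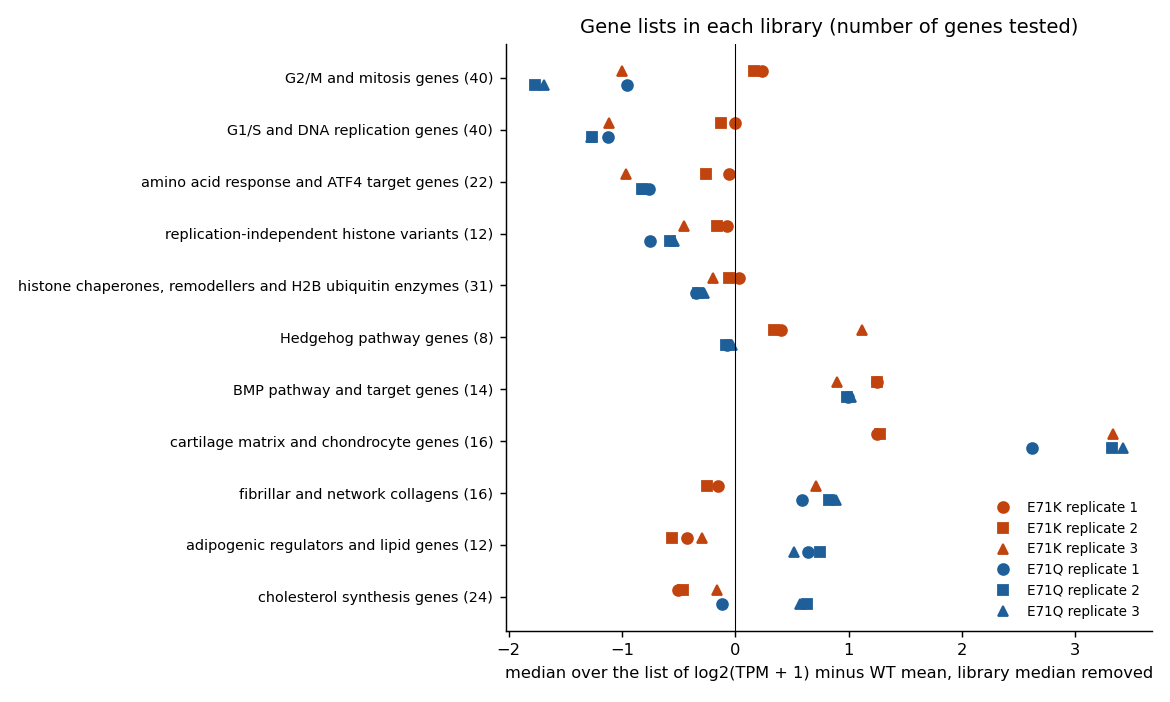
Median over each gene list of log2(TPM + 1) minus the WT mean, after removal of the library's median over all tested genes (horizontal axis), for each E71K library (orange) and E71Q library (blue), with the number of genes tested in brackets. For the mitosis genes E71K replicate 3 (-1.0) and E71Q replicate 1 (-0.95) overlap, and for the cartilage genes E71K replicate 3 (3.33) lies among the E71Q libraries.

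Most tested markers of mesenchymal fates did not pass. Those that passed were lower in E71K in the adipogenic and cartilage lists, went both ways in the osteoblast list and were higher in the contractile list. In these bulk libraries, fewer cells of a type and less RNA per cell cannot be told apart. Of 12 tested adipogenic and lipid genes 3 were lower in E71K and none higher, with a median of -0.89. Over all tested genes 2.24% were lower and 2.57% higher. Pparg (chr6:115360879-115490404), the master regulator of fat cell formation, was at 4.13, 4.10 and 4.56 TPM in E71K and at 30.8, 27.9 and 30.5 TPM in E71Q (-2.54 ± 0.20, adjusted p = 9.51e-05); the libraries set apart lay with their mates here, and WT averaged 20.4 TPM. Plin4, a lipid droplet coat protein, was at 16.3, 12.3 and 35.7 TPM against 96.7, 136 and 146 TPM (-2.62 ± 0.36). Pnpla2, the first lipase of triglyceride breakdown, was at 5.67 to 7.92 TPM against 13.2 to 14.1 TPM (-0.90 ± 0.22, adjusted p = 0.0458). It did not pass in 5 of the 6 runs that left out 1 library.

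For cartilage genes the division ran through the E71K line. Of 16 tested genes 2 passed, both lower in E71K (2.24% of all tested genes were). They were the matrilin gene Matn4 (1.85, 1.27 and 8.65 against 14.5, 66.8 and 79.3 TPM, -3.47 ± 0.66) and the cytokine-like gene Cytl1 (10.2, 9.93 and 22.8 against 146, 90.9 and 99.2 TPM, -2.95 ± 0.34). The list's median relative to WT was 1.36 and 0.98 in E71K replicates 1 and 2, but 3.57 in E71K replicate 3 and 2.44, 3.40 and 3.57 in E71Q. Without E71K replicate 3 the count was 9 lower genes (8.56% of all tested genes were called lower there), and without both libraries set apart it was 12 (20.7%). Sox9, the chondrocyte transcription factor, was at 120, 105 and 221 TPM in E71K and at 146, 171 and 196 TPM in E71Q and did not pass (-0.27 ± 0.30, adjusted p = 0.681).

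Among 10 osteoblast genes 1 was higher and 1 lower in E71K, beside 2.57% and 2.24% of all tested genes. Dlx5, a homeobox factor induced by BMP, was at 29.6, 23.0 and 54.6 TPM in E71K and at 10.0 to 12.2 TPM in E71Q (1.52 ± 0.31), and the osteocalcin-related gene Bglap3 was at 0.32 to 2.99 TPM against 3.51 to 9.51 TPM (-1.998 ± 0.47). Runx2, which directs bone formation, did not pass (9.56, 6.60 and 20.7 against 5.64, 6.98 and 11.5 TPM). One of 9 contractile genes passed, the calponin gene Cnn2 (237 to 326 against 135 to 147 TPM, 0.97 ± 0.22). Acta2, smooth muscle actin, was at 146, 110 and 193 TPM in E71K and at 63.9, 80.9 and 80.0 TPM in E71Q, with no overlap but an adjusted p of 0.0711. None of 10 tendon genes passed.

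Some markers of other cell types differed as well. Of 13 epithelial markers 4 were tested and 2 were higher in E71K (2.57% of all tested genes were). Keratin gene Krt15 was at 15.5, 13.4 and 11.1 TPM in E71K and at most 0.48 TPM in E71Q (3.53 ± 0.27), and the p63 gene Trp63 was at 2.77 to 4.201 TPM against 0.57 to 1.02 TPM (1.24 ± 0.28). Krt14 was at 483, 320 and 79.1 TPM in E71K and at 363, 40.8 and 40.8 TPM in E71Q, so it separated libraries within each line. Epcam, Krt18 and Cldn4 were at 0 in all 6 libraries, and the summed level of the list was 95.9 to 509 TPM in E71K and 42.6 to 367 TPM in E71Q. Of 8 neural and glial markers 4 were tested, and Gfap was lower in E71K (0.05, 0.06 and 1.399 against 2.05, 3.99 and 4.77 TPM). Elavl4 was at 0 and Sox10 under 1 TPM in every library, and the list summed to 26.1 to 34.4 TPM in E71K and 44.5 to 55.6 TPM in E71Q. Of 8 skeletal muscle markers 1 was tested, Des, and it did not pass. Of the leukocyte markers Lyz2 was at 11.8 to 35.6 TPM in E71K and 29.1 to 86.3 TPM in E71Q, and Cd68 at 0.71 to 1.605 TPM and 1.503 to 2.09 TPM. Both were tested and did not pass, and the list summed to 12.8 to 37.0 TPM in E71K and 30.7 to 88.7 TPM in E71Q. The part of other cell types in the results was not tested.

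In the lists of matrix genes, those that passed were lower in E71K (2.24% of all tested genes were). They were 2 of 14 elastic fibre genes, Eln and Fbn1 (median -0.43), 1 of 16 fibrillar and network collagens (median -0.80) and 1 of 9 small leucine-rich proteoglycans (median -0.47). Fbn1, which encodes the microfibril protein fibrillin-1, was at 47.9, 27.6 and 36.0 TPM in E71K and at 89.1, 94.0 and 100 TPM in E71Q (-1.36 ± 0.25). Col4a1, a collagen of basement membranes, was at 45.6 to 74.6 TPM against 108 to 164 TPM (-1.19 ± 0.27). Prelp, a proteoglycan that anchors basement membrane to connective tissue, was at 192, 166 and 228 TPM against 662, 748 and 803 TPM (-1.92 ± 0.22, adjusted p = 0.000932). Col1a1, the main fibrillar collagen, was at 1707, 1242 and 1403 TPM in E71K and at 1095, 924 and 987 TPM in E71Q and did not pass (0.52 ± 0.21, adjusted p = 0.197). Without the libraries set apart, where 20.7% of all tested genes were called lower, the calls lower in E71K were 11 for elastic fibre genes, 12 for collagens and 8 for the proteoglycans. In that setting the elastic fibre gene Ltbp2 (1.11) and the collagen gene Col18a1 (0.86) were called higher. None of 14 metalloproteinases and inhibitors passed.

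Adhesion receptors went both ways. Cdh11, the cadherin of mesenchymal cells, was at 34.0, 27.9 and 110 TPM in E71K and at 1.75, 2.94 and 3.27 TPM in E71Q, with a WT mean of 12.4 TPM between them (3.75 ± 0.45, adjusted p = 0.00115). Itga1, a collagen-binding integrin chain (3.90 to 7.81 against 11.97 to 17.8 TPM, -1.32 ± 0.28), and Itgb4, the laminin-binding chain of hemidesmosomes (16.5 to 20.1 against 37.7 to 53.5 TPM, -1.23 ± 0.23), were lower in E71K. These were the 3 of 21 tested receptors that passed, beside 4.81% of all tested genes.

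Signalling lists held few calls each. Over all tested genes 2.57% were higher and 2.24% lower in E71K, and no test set a list apart from these shares. In the Hedgehog pathway 2 of 8 genes passed and both were higher in E71K: the receptor and target Ptch1 was at 49.7, 33.6 and 39.8 TPM against 12.4, 8.20 and 11.7 TPM (1.84 ± 0.25, adjusted p = 0.00284), and the transcription factor Gli2 was at 1.60 to 3.48 TPM against at most 0.13 TPM (1.70 ± 0.32). In the BMP list 1 of 14 was higher (Dlx5) and 2 were lower, the pseudoreceptor Bambi (1.24 to 2.28 against 4.82 to 5.84 TPM) and the antagonist Chrd (0.56 to 0.77 against 2.49 to 3.17 TPM). In the Wnt list the ligand Wnt5a was higher (2.25 to 5.09 against 0.24 to 0.31 TPM, 1.70 ± 0.33) and Tcf7 lower, of 12 tested. Among 15 TGF-beta genes the ligand Tgfb1 was lower (8.06, 5.73 and 6.98 against 20.8, 18.7 and 20.3 TPM, -1.41 ± 0.22), and among 6 Notch genes the ligand Jag1 was lower (9.13 to 13.7 against 23.3 to 31.1 TPM, -1.20 ± 0.23). Of 16 YAP/TEAD genes 2 were higher, Ajuba (14.01 to 23.3 against 7.27 to 7.40 TPM) and Tead4 (18.6 to 22.6 against 7.998 to 9.03 TPM). Of 7 retinoic acid genes the retinal reductase Dhrs3 was lower (14.5 to 25.4 against 41.0 to 45.9 TPM). No gene passed among 16 of the FGF list, 9 of the IGF list and 20 immediate early genes. Dlx5, Chrd, Ajuba and Dhrs3 did not pass in 5 of the 6 runs that left out 1 library; without E71Q replicate 1, their differences were 1.45, -1.12, 1.14 and -1.06.

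Chromatin genes that passed included H2B genes in both directions (2.57% of all tested genes were higher and 2.24% lower in E71K). Hist1h2bc, whose transcripts are also found polyadenylated in non-dividing cells, was at 48.1, 36.5 and 73.7 TPM in E71K and at 116, 236 and 249 TPM in E71Q, beside a WT mean of 41.7 TPM (-1.88 ± 0.35, adjusted p = 0.0166). Hist1h2bf was at 2.96, 5.08 and 2.73 TPM in E71K and at 1.07, 0.93 and 0 TPM in E71Q (1.497 ± 0.36, adjusted p = 0.0466). The other 12 of the 14 tested H2B genes did not pass. H2B genes are near copies of each other, as the 2 segments above show, so reads may be divided between them and single values are uncertain. Of 12 replication-independent histone variants 3 were higher in E71K: H2afy2, Cenpa and the linker histone H1fx (147, 102 and 107 against 55.3, 39.5 and 44.4 TPM, 1.34 ± 0.25).

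For the next 2 lists, too, the share of all tested genes higher in E71K was 2.57%. Of 31 chaperones, remodellers and H2B ubiquitin enzymes 2 were higher, the H3-H4 chaperone Asf1b (27.5 to 56.0 against 16.4 to 20.1 TPM) and the H2A-H2B chaperone Nap1l1 (595 to 835 against 346 to 366 TPM). Of 38 histone and DNA modifying enzymes 2 were higher, the H3K27 methyltransferase Ezh2 (90.8, 58.5 and 49.9 against 22.3, 25.7 and 29.6 TPM, 1.29 ± 0.27) and the H3K36 methyltransferase Nsd2 (21.6 to 38.7 against 10.7 to 12.8 TPM). Asf1b, Nap1l1, Ezh2 and Nsd2 did not pass in 5 of the 6 runs that left out 1 library. Asf1b and Ezh2 are known to be expressed most in dividing cells, and the mitosis list moved with the same libraries; its part in these 4 genes was not tested.

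Patterning genes that passed were higher in E71K (2.57% of all tested genes were). Of 20 mesenchymal patterning factors these were Tbx1 (2.19 to 3.96 against at most 0.08 TPM, 1.87 ± 0.31) and Foxc2 (11.3 to 16.8 against 4.96 to 5.92 TPM, 1.22 ± 0.23), and of 10 Hox genes it was Hoxc9 (3.40 to 4.84 against 1.32 to 1.51 TPM). Tbx1 averaged 23.4 TPM in WT, above both lines. Of 6 tested imprinted genes 2 were higher, Ndn and the zinc finger gene Plagl1 (7.19, 6.29 and 13.8 against 0.04, 0 and 0.07 TPM, 3.21 ± 0.32, adjusted p = 0.000389).

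Metabolic and stress lists held few calls, beside 2.57% of all tested genes higher and 2.24% lower in E71K. Of 24 cholesterol synthesis genes 1 passed, the mevalonate decarboxylase gene Mvd (25.5, 16.5 and 26.1 against 39.7, 96.6 and 83.5 TPM, -1.58 ± 0.34), while the list's median was -0.73. Its median relative to WT was -0.39, -0.76 and 0.07 in E71K and -0.30, 0.70 and 0.72 in E71Q, so E71Q replicate 1 lay among the E71K libraries. With each library's median removed it was at -0.12, next to E71K replicate 3 at -0.16. After median-ratio rescaling 12 of the 24 were lower (10.1% of all tested genes), without E71Q replicate 1 9 were lower (2.08%), and without both libraries set apart 21 were lower (20.7%); no cholesterol gene was called higher in these settings. Of 22 amino acid response and ATF4 targets 1 passed, the cystathionine gamma-lyase gene Cth (3.04 to 8.75 against 1.11 to 1.43 TPM), and 10 did not overlap, all higher in E71K (median 0.53), beside 14% of all tested genes. After median-ratio rescaling 5 of the 22 had E71K above E71Q, beside 21.7% of all tested genes. Of 20 inflammatory genes the IL-1 receptor antagonist Il1rn was higher (4.26, 4.19 and 7.34 against 0.72, 0.26 and 0.34 TPM, 2.10 ± 0.30) and complement C3 lower (0.71, 0.39 and 5.82 against 5.39, 26.1 and 31.5 TPM). The 2 C3 values nearest each other, 5.82 and 5.39 TPM, are again those of E71K replicate 3 and E71Q replicate 1. Of 22 interferon-stimulated genes Ifit3b was lower, and of 27 hypoxia and glycolysis genes Pdk1 was lower. None of 77 cytosolic ribosomal protein genes, 30 respiratory chain genes and 19 p53 targets passed; the medians were 0.19, -0.06 and 0.07.

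The difference between the lines was also unevenly spread over chromosomes, a pattern looked for after the data had been seen. On chromosome 2 the median difference of 922 tested genes was -0.31, 78% of them were below 0 (49.9% of all tested genes were), and 7 were higher and 50 lower in E71K. That chromosome held 7.84% of the tested genes and 19% of those lower in E71K, Ptgis and Matn4 among them. On chromosome 10 the median of 583 genes was 0.26, with 33 higher and 10 lower. It held 4.96% of the tested genes and 10.9% of those higher in E71K, including H2afy2 and Plagl1. An excess of higher calls was not particular to it. Chromosome X had 26 higher and 7 lower calls among 393 tested genes, and chromosome 6 had 25 and 14 among 564. The share called was 8.4% on chromosome X, 7.38% on chromosome 10, 6.91% on chromosome 6 and 6.18% on chromosome 2, beside 4.81% of all tested genes. Chromosome 2 had 31 higher and 158 lower calls without E71K replicate 3, 5 and 45 without E71Q replicate 1, 47 and 340 without both and 15 and 279 after median-ratio rescaling. Chromosome 10 had 56 and 33, 19 and 10, 76 and 80, and 144 and 19 in the same settings. Its median was 0.12 without E71K replicate 3, 0.15 without E71Q replicate 1 and 0.03 without both, where the median of all tested genes was -0.12, -0.10 and -0.22. Less that median, chromosome 10 stood at 0.24 to 0.26 and chromosome 2 at -0.32 to -0.30 with and without these libraries.

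Relative to WT and after removal of each library's own median, the chromosome 2 genes were at -0.26, -0.27 and -0.27 in E71K replicates 1 to 3 and at 0.00, 0.04 and 0.03 in E71Q. Chromosome 10 genes were at 0.04, 0.03 and 0.09 in E71K and at -0.22, -0.17 and -0.19 in E71Q. Relative to WT, the lower level on chromosome 2 was in E71K and that on chromosome 10 in E71Q. The lines did not overlap on either chromosome, nor on chromosomes 3, 5, 6, 8, 9, 12, 18, 19 and X. Other mutants were shifted as well. On chromosome 2, E76K was at -0.18, E113Q at -0.12 to -0.11, E76Q at 0.04 to 0.06 and E113K at 0.05 to 0.07. On chromosome 10, E113K was at -0.17 to -0.16, E113Q at -0.06, E76Q at -0.06 to -0.05 and E76K at 0.06 to 0.08. Chromosome 6 genes were at 0.23, 0.21 and 0.30 in E71K and at 0.06, 0.08 and 0.11 in E71Q. Both lines were above WT on chromosome 1 (0.26 to 0.29) and below it on chromosome 17 (-0.33 to -0.23), with overlap. With 3 libraries against 3, an exact permutation test of a chromosome's value cannot go below p = 0.10.

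Within chromosome 2, the 65 tested genes between 70 and 90 Mb (GRCm38) had a median difference of -0.64, with 56 below 0, 7 lower in E71K and none higher. Relative to WT they were at -0.73, -0.72 and -0.69 in E71K and at -0.06, -0.04 and -0.08 in E71Q. The other 857 tested genes of the chromosome had a median of -0.29. The segment joins the 10 Mb stretches with the lowest medians of this chromosome, -0.761 at 70 to 80 Mb and -0.514 at 80 to 90 Mb. Its distance from the rest is therefore set in part by that choice and was not tested. The stretch at 60 to 70 Mb, at -0.509, is counted with the rest. Setting each chromosome's median equal in all libraries gave 1655 calls, which included 455 of the 565. DNA copy number was not measured in these libraries, and its part in these shifts was not tested.

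**Figure D4:**
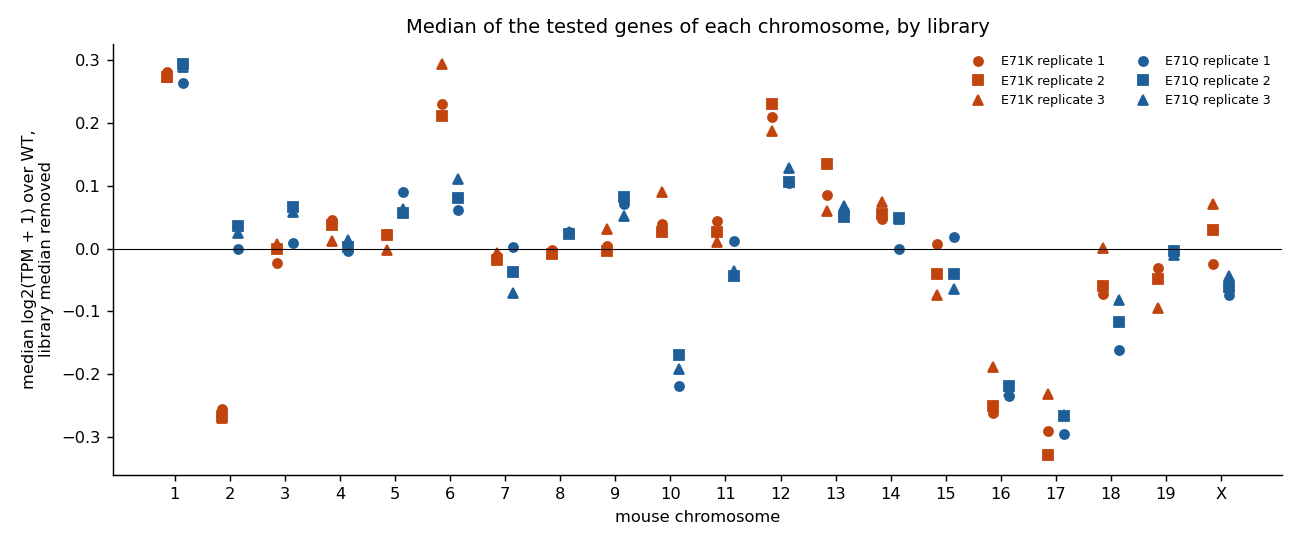
Median over the tested genes of each mouse chromosome (horizontal axis) of log2(TPM + 1) minus the WT mean, after removal of the library's median (vertical axis), with 1 point for each E71K (orange) and E71Q (blue) library. The 3 libraries of a line lie close together, and the lines separate most on chromosome 2 (E71K -0.27 to -0.26) and chromosome 10 (E71Q -0.22 to -0.17).

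The lysine minus glutamine difference at residue 71 was tested against the same difference at E76 and E113, which use other libraries. It differed from that at residue 76 in 2017 genes (17.2%) and from that at E113 in 3353 genes (28.5%; limma interaction over the 18 mutant libraries). That fit uses a spread shared by the mutant groups, whereas E71K was tested against E71Q on their own 6 libraries. Both E71 groups were known to spread more than other groups, so the shared spread may be too small for them. In fits of only the 12 libraries of 2 residues, the counts were 1427 and 2226. Other groups also spread: Cenpa was at 94.9, 98.2 and 38.7 TPM in E76K and at 111.6, 97.0 and 18.8 TPM in E113Q. Among the 565 genes that differed between E71K and E71Q, the interaction passed for 317 against residue 76, for 476 against E113 and for 276 against both. Since these 565 were chosen for their difference at residue 71, these shares are not set against the background. At residue 76 the lysine minus glutamine difference had the same sign in 63.9% of the 565 genes (58.7% of all tested genes), and at E113 in 40.5% (42.8%).

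Ldb2, Smoc2, Tcf7, Serpinb7 and Gxylt2 had opposite directions at residues 71 and 76. Ldb2 was at 2.20, 1.85 and 4.04 TPM in E76K and at 19.9, 23.2 and 21.8 TPM in E76Q, the reverse of its order at residue 71 (difference of differences 7.25 ± 0.43, SE, adjusted p = 1.42e-08). Serpinb7 was at 4.78 to 6.27 TPM in E76K and 0.65 to 0.81 TPM in E76Q (-6.18 ± 0.29). Gxylt2 was at 26.7 to 33.3 TPM in E76K and 1.10 to 1.69 TPM in E76Q (-7.98 ± 0.34). Tcf7 was at 8.63 to 10.3 TPM in E76K and at most 0.06 TPM in E76Q (-7.74 ± 0.94). Ddah2, which degrades methylated arginines, was at 3.42 to 9.08 TPM in E71K against 12.3 to 17.4 TPM in E71Q, and at 30.8 to 67.6 TPM in E76K against 0.62 to 0.93 TPM in E76Q (-5.97 ± 0.40).

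Pparg, too, changed direction with the residue. It was at 49.3 to 52.2 TPM in E76K against 12.5 to 13.6 TPM in E76Q, and at 80.0 to 91.3 TPM in E113K against 28.3 to 42.3 TPM in E113Q (differences of differences -4.44 ± 0.18 and -3.74 ± 0.18, adjusted p = 3.61e-10 and 1.61e-09). The line with lysine had the lower level at residue 71 and the higher level at the other two. Sdc3, by contrast, was lower with lysine at all 3 residues, with an adjusted p below 0.05 in each comparison (3.65 to 4.61 against 35.5 to 37.9 TPM at residue 76, 7.67 to 8.67 against 18.96 to 19.5 TPM at E113), as was Prelp (124.9 to 141 against 277 to 308 TPM and 22.7 to 26.3 against 116 to 122 TPM). Pdlim1 was under 0.1 TPM in all libraries of residue 76, at most 0.20 TPM in E113K and at 1.92 to 3.73 TPM in E113Q (difference of differences against E113 of 6.05 ± 0.28, adjusted p = 1.48e-09).

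**Figure D5:**
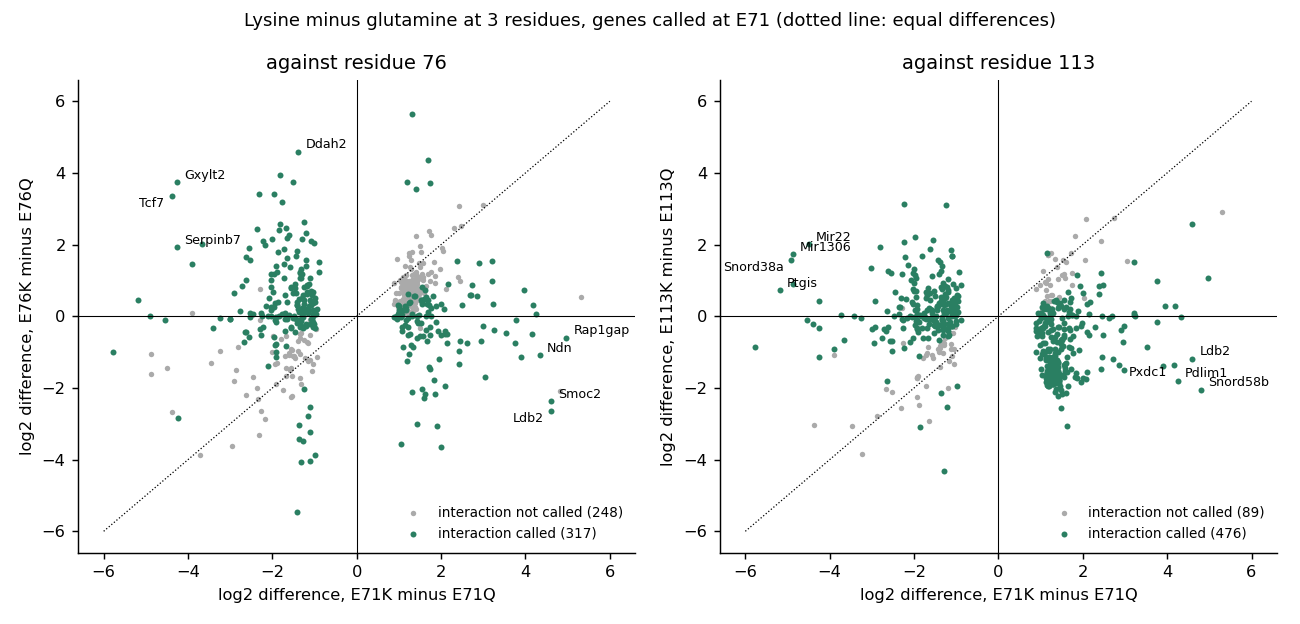
Lysine minus glutamine difference (log2(TPM + 1)) at residue 71 (horizontal axes) against that at E76 (left) and E113 (right) for the 565 genes that differed between E71K and E71Q; green genes had a called interaction (317 and 476) and the dotted line marks equal differences. Genes in the upper left and lower right of a panel, such as Gxylt2 and Ldb2 on the left, have opposite directions at the 2 residues.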

How the data were processed

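RNA isolation used RNeasy and library preparation NEBNext Ultra II, per the labels' protocols. The authors deposited TPM for 24091 genes in 21 libraries. The submitters' processing notes name Salmon, featureCounts 1.4.4, DESeq and the build mm10, and do not assign the TPM to any of these. Library TPM summed to 999897 to 999931, and counts were not used here.

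The deposited TPM were taken to log2(TPM + 1) with no rescaling. The 6 libraries were fitted with limma 3.58.1 in R 4.3.3 (moderated variances, trend on intensity; degrees of freedom 4 residual, 6.16 prior), for genes averaging 1 TPM or more. Tests were two-sided with Benjamini-Hochberg adjustment over all 11756 genes, and called means an adjusted p below 0.05. Interactions came from a fit of the 18 mutant libraries with a spread shared by all their groups. The p-values measure the spread between these samples. No gene set was tested, and lists are described by counts and medians. The fit was tested on simulated data with independent noise in each gene and no shift shared by a library. It recovered 18% of 50 genes changed by a log2 of 1 and 96% of 50 changed by 2. A gene that did not pass may thus still differ by about 2-fold.

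Named by rule were the 12 largest called differences in each direction with a mean of at least 5 TPM and no overlap, up to 3 called members of a list (or up to 2 that do not overlap), 7 genes in any case (Acta2, Cdkn1a, Col1a1, Mki67, Pparg, Runx2 and Sox9), and the 4 largest interactions in each direction. Members and lists were chosen with earlier results of these data known. Krt14 and the genes called undetected among the markers are named from marker lists. Gene positions are GRCm38 and were matched by Entrez identifier for 11745 genes. Alternatives tried were other pseudocounts and filters, rescaling, quantile normalization, Mir6236 left out, other moderation, a replicate block, a minimum difference, all 21 libraries and each library left out; setting chromosome medians equal was added after the data were seen. Some items are not reported here.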

Additional observations from a re-analysis of the deposited data

Results flagged for a closer look

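For the genes below, the lysine minus glutamine difference at residue 71 differed from that at another residue by the limma interaction test, with Benjamini-Hochberg adjustment over 11756 genes. They are the 4 genes in each direction with the largest interaction, and values are differences of differences of log2(TPM + 1) with SE. Against E76, the interaction was 5.57 ± 0.98 for Rap1gap, 7.25 ± 0.43 for Ldb2, 6.97 ± 0.55 for Smoc2 and 5.43 ± 0.30 for Ndn. It was -7.74 ± 0.94 for Tcf7, -6.18 ± 0.29 for Serpinb7, -7.98 ± 0.34 for Gxylt2 and -5.97 ± 0.40 for Ddah2. The adjusted p was 0.000832 for Rap1gap and lower for the other 7 genes.

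Against E113, the interaction was 5.78 ± 0.43 for Ldb2, 6.05 ± 0.28 for Pdlim1, 5.52 ± 0.25 for Pxdc1 and -5.91 ± 0.24 for Ptgis. The other 4 are small RNA loci, which were at 0 in some libraries of E113 and well above 0 in others: 6.85 ± 2.47 for Snord58b (adjusted p = 0.049), -6.47 ± 1.14 for Snord38a, -6.61 ± 1.57 for Mir1306 and -6.50 ± 2.23 for Mir22 (adjusted p = 0.0397). Where a group is at 0 the size of such a value depends on the pseudocount.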

How the results depend on the processing

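With all 6 libraries 565 genes were called, 302 higher and 263 lower in E71K. Totals, higher and lower calls were 2224, 1031 and 1193 after median-ratio rescaling, 2158, 1040 and 1118 after quantile normalization, 2059, 1095 and 964 without Mir6236, 929, 505 and 424 with robust moderation, and 3077, 1556 and 1521 with all 21 libraries. They were 3459, 1030 and 2429 without both libraries set apart, and 1655, 720 and 935 with chromosome medians set equal. Leaving out each library in turn gave 124 to 1685 calls (55 to 679 higher, 69 to 1006 lower): 124, 197 and 1685 without E71K replicates 1, 2 and 3, and 429, 154 and 198 without E71Q replicates 1, 2 and 3. Pseudocounts of 0.1 and 5, no filter, a mean of at least 5 TPM, no trend and a minimum difference of 1 gave 415 to 619. None of the 565 calls was reversed in any of these settings. The cause of the changes was not tested.

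The 2017 genes that differed from E76 became 3789 after median-ratio rescaling, 3869 after quantile normalization, 3536 without Mir6236, 1182 with a minimum difference of 1, 4466 without both libraries set apart and 3246 with chromosome medians equal. They became 1427 in a fit of 12 libraries and 1528 to 3211 with 1 library left out. The 3353 that differed from E113 became 5444, 5493, 5226, 1919 and 5895 in the first 5 of these settings, 2226 in a fit of 12 libraries, and 2612 to 4904 with 1 library left out.

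Replicate numbers did not pair the samples: deviations of same-numbered libraries correlated at 0.24, -0.17 and 0.25. With a replicate block 1398 genes were called (695 higher, 703 lower), 565 of them those called without it. Over 97 named genes and all alternatives, 1550 results kept their side of the threshold, 280 lost and 91 gained a call, and 1 changed sign: Runx2, not called, was at -0.16 without both libraries set apart. Weighting libraries with limma's arrayWeights could not be fitted, because its estimate did not converge. TPM gives no depth, so counting error is unknown.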
